A study of Homo sapiens with 4 samples.

Results

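Epithelial-mesenchymal transition (EMT) is steered by a small set of transcription factors and held back by factors of the epithelial state, and 10 genes, 5 of each kind, were followed here in libraries labelled as A549 cells with the membrane receptor DCBLD2 raised or lowered. The genes were taken from the deposited count matrix by their symbols. They were the EMT drivers SNAI1, SNAI2, ZEB1, ZEB2 and TWIST1, and the epithelial gatekeepers ESRP1, ESRP2, OVOL1, OVOL2 and GRHL2. All 10 were among the 57905 genes of the matrix, but only the 5 drivers reached a mean level of 1 CPM, counts scaled to a fixed library size, over the libraries, as did 13966 genes in all. The 5 gatekeepers stayed below that level.

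SNAI1 (Snail), SNAI2 (Slug), ZEB1 and ZEB2 are zinc finger repressors that bind E-box motifs in the promoters of epithelial genes such as CDH1, which encodes E-cadherin, and TWIST1 is a basic helix-loop-helix factor that also acts on E-boxes. ESRP1 and ESRP2 are RNA-binding proteins that set the epithelial splicing pattern, and OVOL1, OVOL2 and GRHL2 are transcription factors that hold the epithelial state, partly by repressing ZEB1. ZEB1 and ZEB2 are also held down by the miR-200 microRNAs, whose own genes the ZEB factors repress, so that drivers and gatekeepers oppose each other.

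The study asked how cisplatin promotes EMT and metastasis in lung adenocarcinoma, and A549 is a human cell line of that cancer. Its text describes RNA sequencing of A549 with DCBLD2 overexpression and with empty vector. By RT-PCR, the paper reports TWIST1, SNAI1, SNAI2 and ZEB1 raised in cells overexpressing DCBLD2. It reports that knockdown lowered such EMT factors. RNA sequencing covered 4 stable lines, all labelled A549, with 1 library each. By the study's methods, overexpression (OE) used the human coding sequence in pLV-EF1-MCS-IRES-Bsd, and that line was set against the empty vector, selected with blasticidin. The shDCBLD2 line was set against a scramble control (sc). The DCBLD2 hairpins were cloned into pLV-H1-EF1α-puro, while the vector of the scramble control and the selection drug of these lines are not stated. Which of the study's hairpins the sequenced line carried was not given in the sources used here. The lentiviruses were made in 293T cells, and the sources do not say whether each line was a pool or a clone. With 1 library per condition there was no replicate check of any value, and no p-value was computed. All intervals are 95% intervals that cover counting error only. In such bulk libraries, fewer cells of a type and less RNA per cell cannot be told apart.

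Library totals ran from 16601633 to 21537283 counts. DCBLD2 itself had 9859 counts in sc and 4259 in shDCBLD2, and 7970 with the empty vector against 4000 in the library labelled OE. Relative to its control it was thus 2.55-fold lower in shDCBLD2 and 1.79-fold lower in the library labelled OE, the opposite of that label. The same library stood apart in other ways. Genes that reached 20 counts in it but no more than 1 count in any other library numbered 87, against 1 such gene with the empty vector and 0 in sc and in shDCBLD2. CDKN2A, a tumor suppressor gene known to be deleted in A549, had 2104 counts there and 0 in each of the other 3 libraries. Among 12 markers of lung epithelial-like cells the summed level was 17551 CPM in sc and 12577 in shDCBLD2. It was 14847 with the empty vector against 19227 in the library labelled OE. Of these markers, KRT8 had between 102357 and 160585 counts. The alveolar marker SFTPC had 11, 3, 6 and 2 counts in the same order of libraries, and NKX2-1 had 0, 0, 0 and 7. Among 10 markers of fibroblast-like cells the summed level was 39.4 CPM in sc and 60.9 in shDCBLD2, and 46.6 with the empty vector against 84.4 in the library labelled OE; FAP was at 0 in all 4, and DCN and LUM had at most 4 and 1 counts. Among 10 markers of HEK293-like cells the sum was between 250.3 and 445.3 CPM, lowest with the empty vector and highest in shDCBLD2. In the library labelled OE it was 260.3 CPM. Of the 10 markers, 6 were above their empty vector level there and 4 below. Among them NEFM had 221 counts in the library labelled OE against at most 4 elsewhere, and it reached 1 CPM in that library alone. Among 10 blood-like markers the summed level was 7.92 CPM in sc and 3.99 in shDCBLD2. It was 15.04 with the empty vector against 22.3 in the library labelled OE, the highest of the 4. Of these markers, only 1 reached a mean of 1 CPM. Its log2 ratio in the library labelled OE was 0.50 against the empty vector and 1.43 against sc. In shDCBLD2 against sc it was -1.06. The sum of 7 endothelial-like markers was at most 4.69 CPM, with the empty vector. PTPRC, VWF and KDR were at 0 throughout. The values of DCBLD2 and CDKN2A go against the labelled construct and cell line of the library labelled OE, so it may not be what its label says, and its comparisons below are between libraries as labelled. The part of these differences in the results below was not tested.

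Sequences that tie the members to each other are shown first. The 5 mature miR-200 family members, as given by RefSeq on GRCh38.p14, fall into 2 groups by their seed, bases 2 to 8, printed in capitals. The seed AAUACUG is shared by miR-200b-3p, miR-200c-3p and miR-429, and AACACUG by miR-200a-3p and miR-141-3p.
hsa-miR-200b-3p: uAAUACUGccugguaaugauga
hsa-miR-200c-3p: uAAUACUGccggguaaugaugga
hsa-miR-429: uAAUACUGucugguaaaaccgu
hsa-miR-200a-3p: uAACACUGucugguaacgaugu
hsa-miR-141-3p: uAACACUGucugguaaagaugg

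Exact complements of the seeds (CAGTATT and CAGTGTT) were counted in the 3′ untranslated region of the longest coding transcript of 19115 genes in GENCODE 29. ZEB1 held 9 in 2549 bases, 6 to the first seed and 3 to the second, and ZEB2 held 9 in 5370 bases, 5 and 4. Of all genes, 0.0314% had as many or more. Of the other drivers, SNAI2 held 1 and SNAI1 and TWIST1 held 0, and among the gatekeepers ESRP1 held 2, GRHL2 1 and ESRP2, OVOL1 and OVOL2 0. The counts are of letters and say nothing of use in these cells. One match of each ZEB gene is shown with the bases before it, the match in capitals, because these 2 drivers held more matches than the other members.
ZEB1, match at bases 369 to 375 of the 3′ untranslated region: attgttttatcttatCAGTATT
ZEB2, match at bases 392 to 398 of the 3′ untranslated region: cgcactaccatacatCAGTATT

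The libraries were made from poly(A) RNA and do not measure mature microRNAs. The hairpin entries MIR141, MIR200A, MIR200B, MIR200C and MIR429 had 0 or 1 count in every library, and MIR200CHG, the host gene of miR-200c and miR-141, had 0.

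The E-box searched was CACCTG, whose other strand reads CAGGTG. The 2 do not overlap each other. It was looked for on both strands in RefSeq promoter windows on GRCh38.p14, from 250 bases before to 50 bases after each annotated start, and 6571 of 27305 genes with a window (24.1%) held it. Windows were found for ZEB1 and ZEB2 alone among the members. ZEB1 had 7 windows, 2 of which held the motif, and the single window of ZEB2 held none. Of the epithelial genes that were listed as targets of these factors, 15 of the 21 with a window (71.4%) held the motif in any window, against 3 of 14 listed mesenchymal genes (21.4%). Per window, it was in 17 of 30 (56.7%) against 4 of 19 (21.1%), and in 20.6% of all windows. The epithelial genes were listed from general knowledge as targets of E-box factors, so their share is no independent test. The ZEB1 window with the most motifs held 3, at 242 and 85 bases before the start and 34 after it. It is shown with the windows of SPINT1 and TJP3, epithelial genes called lower in shDCBLD2 and higher in the library labelled OE, where the motif lay 26 and 7 bases before the start. These windows were picked because they hold the motif. Another window of SPINT1, another of TJP3 and the only window of CLDN4, which had the same calls, held none. All 3 windows are on the plus strand, and the motif is in capitals.
ZEB1, chr10:31318966-31319265: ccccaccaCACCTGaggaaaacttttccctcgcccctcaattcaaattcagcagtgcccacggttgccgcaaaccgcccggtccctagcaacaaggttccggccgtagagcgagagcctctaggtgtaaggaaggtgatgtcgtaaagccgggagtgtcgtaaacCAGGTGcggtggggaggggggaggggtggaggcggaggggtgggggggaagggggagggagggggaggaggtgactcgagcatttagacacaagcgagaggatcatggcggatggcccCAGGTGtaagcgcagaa
SPINT1, chr15:40844227-40844526: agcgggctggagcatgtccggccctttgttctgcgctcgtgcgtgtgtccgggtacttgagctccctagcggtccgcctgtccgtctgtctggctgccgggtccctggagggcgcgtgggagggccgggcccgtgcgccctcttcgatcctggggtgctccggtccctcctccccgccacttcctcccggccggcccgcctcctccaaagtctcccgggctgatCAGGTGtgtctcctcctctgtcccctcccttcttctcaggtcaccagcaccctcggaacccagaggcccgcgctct
TJP3, chr19:3721487-3721786: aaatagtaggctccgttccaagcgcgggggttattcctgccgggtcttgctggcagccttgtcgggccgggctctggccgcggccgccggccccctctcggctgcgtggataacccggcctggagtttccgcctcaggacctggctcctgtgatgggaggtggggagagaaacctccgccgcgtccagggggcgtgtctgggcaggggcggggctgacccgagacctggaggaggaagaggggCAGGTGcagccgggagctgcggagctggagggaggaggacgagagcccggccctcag

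In the deposited coordinates, whose human build is not given in the sources used here, SNAI1 lies on chromosome 20 from 48599536 to 48605423 and SNAI2 on chromosome 8 from 49830249 to 49834299, and neither overlaps another entry. ZEB1 spans chromosome 10 from 31607424 to 31818742, ZEB2 chromosome 2 from 145141648 to 145282147 and TWIST1 chromosome 7 from 19060614 to 19157295. Of the gatekeepers, ESRP1 and GRHL2 lie on chromosome 8, ESRP2 on 16, OVOL1 on 11 and OVOL2 on 20. The deposited exonic sizes ran from 1686 bases for SNAI1 to 17907 for ZEB2, so levels are compared between genes only per length.

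SNAI1 was the driver with the highest level per length in every library. The deposited FPKM, which divides counts by exonic length and library total, was 8.20 in sc and 13.69 in shDCBLD2, and 5.42 with the empty vector against 2.54 in the library labelled OE. SNAI2 had an FPKM of 1.90, 3.93, 0.75 and 1.53 in the same order, and ZEB1 had 1.41, 1.62, 0.79 and 0.46. TWIST1 had an FPKM of 0.88, 0.30, 1.73 and 1.45. ZEB2 was the lowest driver in all 4 libraries, with an FPKM of 0.25, 0.19, 0.13 and 0.14. The order between the highest and the lowest changed with the library. SNAI2 came second in sc, in shDCBLD2 and in the library labelled OE, where its level and that of TWIST1 did not differ beyond counting error, while TWIST1 came second with the empty vector. Neighbours that could not be ordered by their intervals were also ZEB1 and SNAI2 with the empty vector, and TWIST1 and ZEB2 in shDCBLD2. All other neighbours in the order differed beyond counting error.

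**Figure D1:**
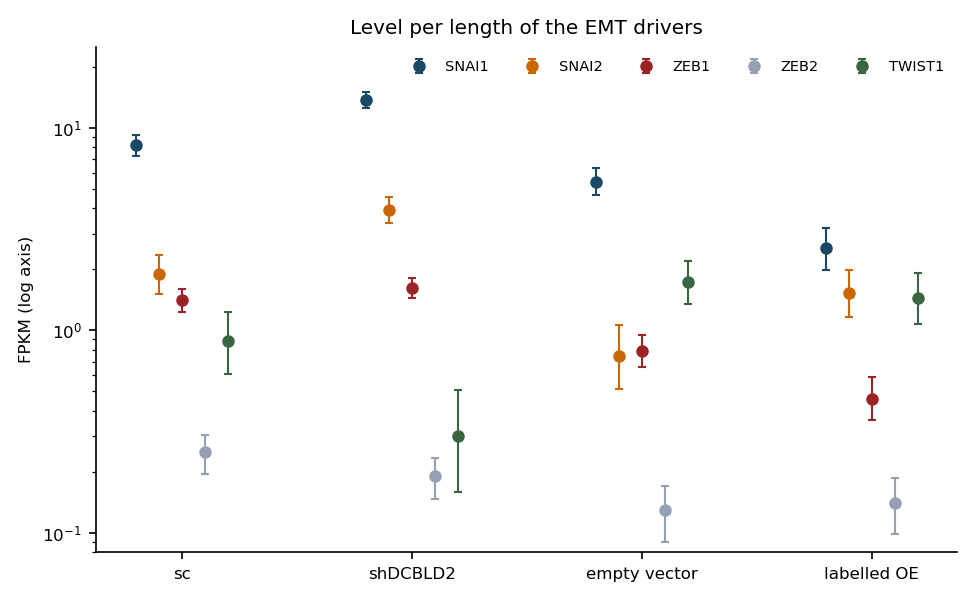
Deposited FPKM of the 5 EMT drivers (vertical log axis) in the 4 libraries (horizontal axis), with bars for exact Poisson 95% intervals. SNAI1 sits highest in every library, from 2.54 to 13.69, and ZEB2 lowest, from 0.13 to 0.25.

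SNAI1 was also the driver that varied most, with a range of 2.39 on the log2 CPM scale over the 4 libraries. TWIST1 ranged over 2.39 as well, SNAI2 over 2.29, ZEB1 over 1.77 and ZEB2 over 0.88. The median range of all 13966 genes past the filter was 0.78, and 95.3% of genes had a smaller range than SNAI1 but only 57.1% a smaller range than ZEB2. The summed level of the 5 drivers was 35.5 CPM in sc and 49.8 in shDCBLD2, and 23.9 with the empty vector against 17.3 in the library labelled OE.

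The comparison of the library labelled OE with the empty vector was meant to show what the construct changed. A gene was called when its counts, scaled by library size, differed at least 2-fold and the interval of the ratio excluded no change. By that rule SNAI1 was lower and no driver was higher, 1 and 0 of 5. Of all genes past the filter, 5.35% were called lower and 6.42% higher. SNAI1 had 264 counts in sc and 497 in shDCBLD2, and 171 with the empty vector against 71 in the library labelled OE, the lowest of the 4. Its interval did not overlap that of any other library. It was 2.14-fold lower than with the empty vector, a log2 ratio of -1.10 (interval -1.54 to -0.71). With upper quartile factors the log2 ratio was -0.98 and the call was lost.

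SNAI2 had 83, 193, 32 and 58 counts in the same order of libraries, lowest with the empty vector. Its log2 ratio in the library labelled OE was 0.97 (interval 0.36 to 1.68), a 1.96-fold difference just short of a call, and it passed with upper quartile factors (1.09) and with a prior count of 0.5 (1.00). Set against sc, the other control, the log2 ratio was -0.26 (interval -0.78 to 0.23). That interval included no change, so a difference in SNAI2 was seen against the empty vector only.

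ZEB1 had 230, 299, 127 and 66 counts, again lowest in the library labelled OE. The log2 ratio to the empty vector was -0.78 (interval -1.24 to -0.35), below no change but short of 2-fold. Against sc it was -1.53 (interval -1.97 to -1.16) and called, as SNAI1 was at -1.63, which makes 2 of 5 drivers lower and 0 higher, where 8.98% of all genes were lower and 8.08% higher. ZEB1-AS1, an antisense RNA that overlaps ZEB1 by 1953 bases in the deposited coordinates, had 68, 66, 85 and 42 counts, so reads of the 2 could be exchanged if counting ignored the strand, a setting not given in the sources used here.

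ZEB2 had 84, 72, 42 and 41 counts and TWIST1 had 34, 13, 66 and 49. Their log2 ratios between the library labelled OE and the empty vector were 0.11 (interval -0.54 to 0.77) and -0.27 (interval -0.84 to 0.28). Neither difference was detectable at this depth. Against sc the log2 ratios turned to -0.76 for ZEB2 and 0.74 for TWIST1, neither called.

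**Figure D2:**
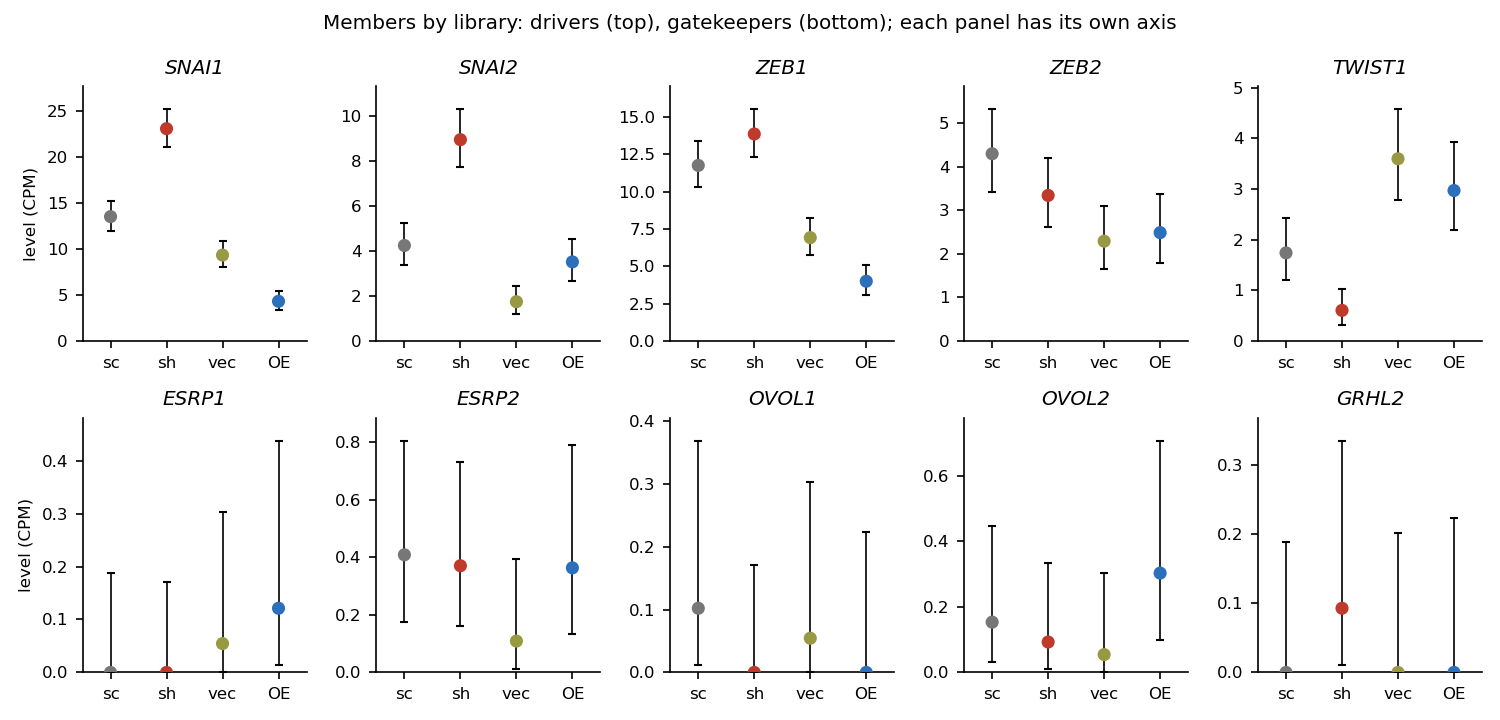
Level of each of the 10 members in CPM (vertical axes, each starting at 0 and with its own scale) in sc, shDCBLD2 (sh), empty vector (vec) and OE, with bars for exact Poisson 95% intervals. SNAI1 and ZEB1 are lowest in OE, SNAI1 at 4.30 CPM, and the 5 gatekeepers of the lower row stay at or below 0.409 CPM.

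The comparison of shDCBLD2 with sc asked what knockdown changed. SNAI2 was called higher and TWIST1 lower, 1 of 5 drivers each, where 1.16% of all genes were called higher and 5.62% lower. SNAI2 rose from 83 counts in sc to 193 in shDCBLD2, the highest of the 4 libraries, a log2 ratio of 1.06 (interval 0.70 to 1.47). TWIST1 fell from 34 counts to 13, the lowest of the 4, with a log2 ratio of -1.38 (interval -2.57 to -0.57). Both calls also held against the empty vector, at 2.29 for SNAI2 and -2.39 for TWIST1.

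SNAI1 was highest in shDCBLD2, at 23.0 CPM against 13.5 in sc. Its log2 ratio of 0.77 (interval 0.55 to 0.99) was above no change but under 2-fold, and against the empty vector it was 1.30 (interval 1.05 to 1.57) and called. Against that control 2 of 5 drivers were thus higher and 1 lower, where 2.23% of all genes were higher and 8.01% lower. ZEB1 was at 13.9 CPM against 11.8, with a log2 ratio of 0.24 (interval -0.02 to 0.49), and ZEB2 was at 3.34 CPM against 4.29, with a log2 ratio of -0.35 (interval -0.84 to 0.11). For both ZEB genes the interval included no change.

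The 2 control lines differed from each other in the same genes. With the empty vector, TWIST1 was called higher than in sc (log2 ratio 1.01, interval 0.43 to 1.69) and SNAI2 lower (-1.23, interval -1.92 to -0.68), 1 of 5 each, where 2.22% of all genes were called higher and 1.89% lower. SNAI1, ZEB1 and ZEB2 had log2 ratios of -0.53, -0.76 and -0.88, none of them called although each interval lay below 0. The controls belong to different arms, overexpression and knockdown, and are not replicates, and their differences in SNAI2 and TWIST1 were also 2-fold or more. The call of TWIST1 between the controls was lost with library totals alone (0.95), with a prior count of 5 (0.95) and with counts drawn down to the smallest library (0.88).

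**Figure D3:**
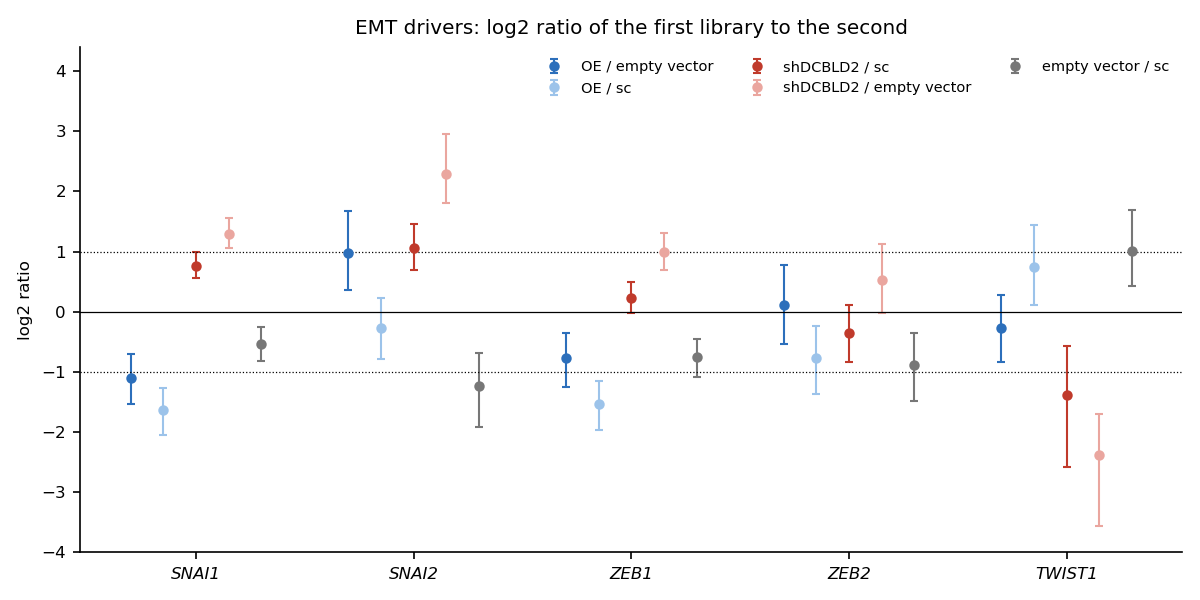
Log2 ratio of the first library to the second (vertical axis) for the 5 drivers in 5 pairings of libraries (colors; OE is labelled DCBLD2 overexpression), with bars for 95% counting intervals and dotted lines at 2-fold. SNAI1 lies below 0 for OE against both controls (-1.10 and -1.63) and above 0 for shDCBLD2 against both (0.77 and 1.30). SNAI2 in OE lies above 0 against the empty vector (0.97), while its interval against sc (-0.26) includes 0.

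The gatekeepers were at or near the limit of detection in all 4 libraries. ESRP1 had 0 counts in sc and 0 in shDCBLD2, and 1 with the empty vector against 2 in the library labelled OE. GRHL2 had 0, 2, 0 and 0, and OVOL1 had 2, 0, 1 and 0. A count of 0 allows up to 3 counts, between 0.139 and 0.182 CPM depending on the library. These 3 genes never exceeded 3 counts, and no fold was computed for them.

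ESRP2 and OVOL2 had a few more counts. ESRP2 had 8, 8, 2 and 6 counts, and its log2 ratio in the library labelled OE against the empty vector was 1.13 with an interval from -0.75 to 5.08. OVOL2 had 3, 2, 1 and 5 counts, and its log2 ratio there was 1.35 with an interval from -0.68 to 8.04. Neither difference was detectable at this depth, and ESRP2 in shDCBLD2 against sc (log2 ratio -0.11, interval -1.75 to 1.47) gave none either. Both genes overlap abundant neighbours in the deposited coordinates. NFATC3, on the strand opposite to ESRP2, had between 260 and 546 counts, and SNX5, on the strand of OVOL2, had between 1319 and 3548, so a few counts on either member may be uncertain. The summed FPKM of the 5 gatekeepers was at most 0.22, against 6.12 to 19.7 for the 5 drivers.

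ESRP-dependent splicing could not be read from counts per gene, but the levels of genes spliced under ESRP control could. Of 16 such genes, all past the filter, 1 was called higher in the library labelled OE and 1 lower in shDCBLD2, shares near the 6.42% and 5.62% of all genes. FGFR2, the gene called both times, is a fibroblast growth factor receptor whose epithelial IIIb form needs ESRP activity. It had 65 counts in sc and 6 in shDCBLD2, and 22 with the empty vector against 132 in the library labelled OE. It was 8.94-fold lower in shDCBLD2 than in sc and 6.21-fold higher in the library labelled OE than with the empty vector, and it was called lower with the empty vector than in sc too (log2 ratio -1.39). CD44, a known ESRP target, had between 7745 and 10069 counts and log2 ratios of 0.02 and 0.00. Of 17 other EMT splicing factors past the filter, 1 was called higher and 1 lower in the library labelled OE, shares near the 6.42% and 5.35% of all genes. In shDCBLD2 0 were called, where 1.16% of all genes were higher and 5.62% lower. CELF2 had 69 counts in the library labelled OE, 1 each with the empty vector and in sc, and 0 in shDCBLD2. It passed the filter through the library labelled OE alone, and without CELF2 0 were called higher. MBNL2, a muscleblind splicing factor, had 89 counts there against 308 to 328 elsewhere.

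Other transcription factors linked to EMT had 16 of 19 members past the filter. In the library labelled OE 1 was called higher and 2 lower, and in shDCBLD2 1 was called higher, where 6.42%, 5.35% and 1.16% of all genes were so called. FOXC2, a forkhead factor of mesenchymal cells, had 36 counts in sc and 112 in shDCBLD2, and 32 with the empty vector against 13 in the library labelled OE. It rose in shDCBLD2 (log2 ratio 1.45) and was lower in the library labelled OE (-1.05). FOXC1, its relative, had 210, 268, 157 and 581 counts and a log2 ratio of 2.03 in the library labelled OE. TWIST2, the paralog of TWIST1, had 178, 150, 338 and 107 counts. It was lower in the library labelled OE (-1.49) and, like TWIST1, higher with the empty vector than in sc (1.01). With sc as the control, 4 of the 16 were higher and 2 lower in the library labelled OE. Of all genes, 8.08% were higher and 8.98% lower in that pairing. TWIST2 was then at -0.48 and not called. SNAI3, the third Snail family gene, had 14 to 28 counts and no call.

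The other epithelial transcription factors, 12 of 16 past the filter, were measured well where the gatekeepers were not. In the library labelled OE 5 were called higher and 0 lower, with a median log2 ratio of 0.48, and in shDCBLD2 0 were called higher and 3 lower, with a median of -0.61. Of all genes, 6.42% were called higher in the former and 5.62% lower in the latter. The medians of all genes were -0.04 and 0.01. GRHL1, a grainyhead factor like GRHL2, had 28 counts in sc and 19 in shDCBLD2, and 13 with the empty vector against 38 in the library labelled OE, where its log2 ratio was 1.57. GRHL3 had 37, 16, 35 and 51 counts and fell in shDCBLD2 (log2 ratio -1.24). With sc as the control 2 of the 12 were higher in the library labelled OE, where 8.08% of all genes were higher. GRHL1 was then at 0.65 and not called. The 2 relatives of GRHL2 had 13 counts or more in every library, while GRHL2 had at most 2 in any, below the floor of 3 counts.

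ELF3, an ETS factor of epithelia, was the most abundant of the called factors, with 3239, 1757, 4558 and 4095 counts in the same order. It fell 2.03-fold in shDCBLD2. EHF, its relative, had 140, 48, 53 and 103 counts. It fell in shDCBLD2 (-1.64) and was higher in the library labelled OE (1.08), but it was also lower with the empty vector than in sc (-1.28), and against sc its log2 ratio in the library labelled OE was -0.19. TP63, a p53 family factor of basal epithelium, had 122, 89, 43 and 243 counts and a log2 ratio of 2.60 in the library labelled OE. It too was lower with the empty vector than in sc (-1.37), and against sc its log2 ratio in the library labelled OE was 1.23, still called. Between the controls 0 of the 12 factors were called higher and 2 lower, EHF and TP63. Of all genes, 2.22% were called higher and 1.89% lower there.

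Epithelial genes that the drivers repress, 27 of 35 past the filter, had 7 called higher and 0 lower in the library labelled OE, and 0 higher and 11 lower in shDCBLD2. Of all genes, 6.42% were called higher in the former and 5.62% lower in the latter. CDS1 passed the filter through the library labelled OE alone, and without it 6 were called higher there. Between the 2 controls 0 were called, where 2.22% of all genes were higher and 1.89% lower. The median log2 ratios were 0.62, -0.79 and 0.01 in the 3 comparisons. CDH1 had 1050 counts in sc and 220 in shDCBLD2, and 832 with the empty vector against 1103 in the library labelled OE. It fell 5.22-fold in shDCBLD2, and that library stood far below the other 3. TJP3, a tight junction scaffold, had 110, 17, 160 and 398 counts, and SPINT1, a protease inhibitor of epithelia, had 30, 4, 34 and 128. Both fell in shDCBLD2 (log2 ratios -2.68 and -2.49) and were higher in the library labelled OE (1.46 and 2.01). CLDN4, EPCAM and KRT19 had the same pair of calls, which makes 5 of 27 genes (18.5%), where 303 of 13966 genes (2.17%) had it. Of the 27 ratios of the library labelled OE to the empty vector, 20 were above 0 and 7 below. TJP1, another tight junction scaffold, was among the latter, with 3166, 3429, 2046 and 1082 counts and a log2 ratio of -0.76. Against sc that ratio was -1.30 and called lower. With sc as the control 9 of 27 were higher and 2 lower, where 8.08% and 8.98% of all genes were so called. Without CDS1, 8 were higher. The median against sc was 0.32, and EPCAM was not called (0.69).

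Of 26 mesenchymal genes 23 passed the filter. In the library labelled OE 7 were called higher and 0 lower, with a median log2 ratio of 0.45, and in shDCBLD2 4 were called higher and 1 lower, with a median of 0.56. Of all genes, 6.42% were called higher and 5.35% lower in the library labelled OE, and 1.16% were called higher and 5.62% lower in shDCBLD2. The gene called lower was COL1A2. With sc as the control 9 of 23 were higher and 0 lower in the library labelled OE, with a median of 0.71. Of all genes, 8.08% were higher and 8.98% lower in that pairing. Between the controls 1 was higher and 2 were lower, where 2.22% and 1.89% of all genes were so called. TAGLN, an actin-binding protein, had 666, 2197, 453 and 1883 counts and TNC, a matrix glycoprotein, 59, 195, 54 and 294, so both were higher in shDCBLD2 and in the library labelled OE than in the respective control. VIM, the mesenchymal intermediate filament, had 24155, 43369, 25497 and 16424 counts, highest in shDCBLD2 and lowest in the library labelled OE, as SNAI1 was, and was not called in either comparison. FN1, which encodes fibronectin, had 21915, 15348, 6644 and 38672 counts. It was 6.47-fold higher in the library labelled OE than with the empty vector but also 3.09-fold lower with the empty vector than in sc.

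The collagen genes that fibroblast-like cells share with this list were among those higher in the library labelled OE. COL3A1 had 9, 18, 6 and 68 counts, and COL1A2 had 17, 1, 0 and 67, at least 24.8-fold higher there than with the empty vector when 3 counts are allowed for the 0. Leaving COL1A2 at that bound kept the median of the list at 0.45. Both genes were under 1 CPM in each other library and so passed the filter through the library labelled OE alone. Without them 5 of 21 mesenchymal genes were called higher there than with the empty vector, and 7 of 21 higher than in sc. In shDCBLD2 4 were then called higher and 0 lower. Between the controls 1 was then higher and 1 lower. Of the other fibroblast-like markers past the filter, 1 of 3 was called higher in the library labelled OE, and the part of other cells in these values was not tested.

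**Figure D4:**
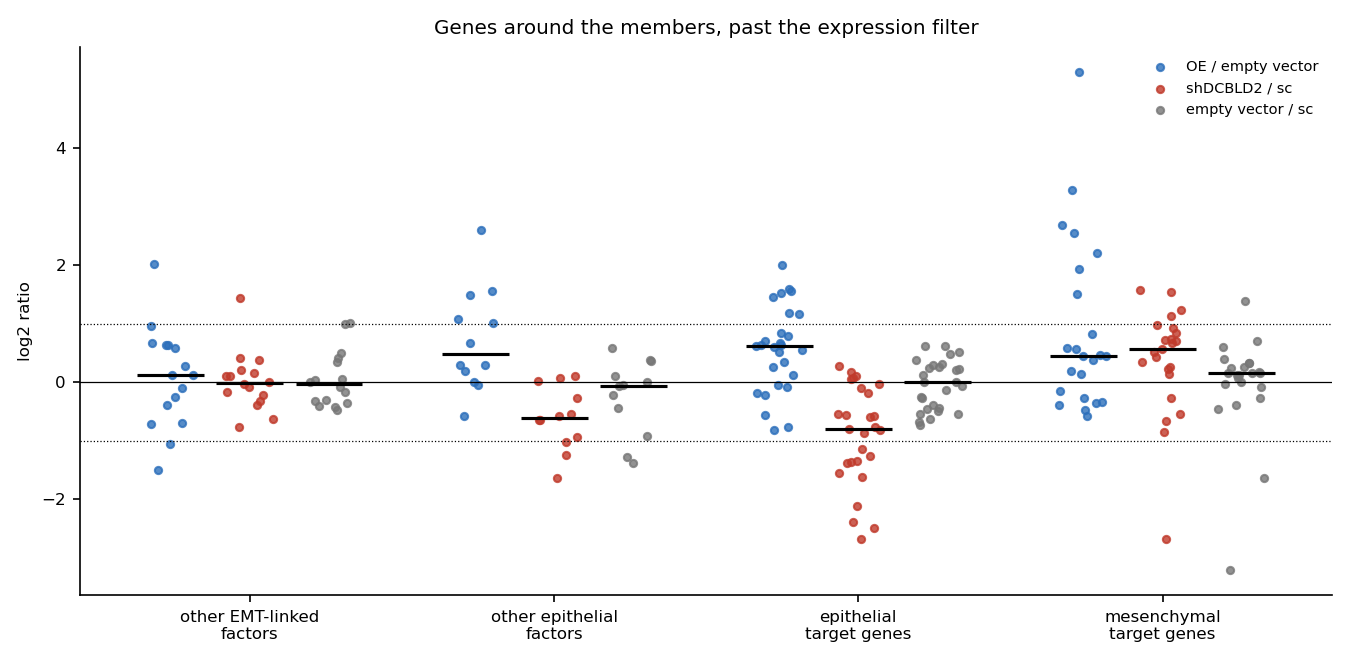
Log2 ratio (vertical axis) of each gene past the filter in 4 lists (horizontal axis) for OE against empty vector, shDCBLD2 against sc, and empty vector against sc; bars are medians and dotted lines mark 2-fold. Epithelial target genes have medians of 0.62, -0.79 and 0.01, and mesenchymal target genes have medians of 0.45, 0.56 and 0.15.

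Genes with the most similar profile were sought for each driver with a log2 range of at least 1, among 10835 genes with a mean of at least 5 CPM, by Euclidean distance between centred log2 CPM over the 4 libraries. With only 4 points this describes these libraries alone. SMC4, RUNX2 and MYBL1 lay nearest to SNAI1, at distances of 0.14 to 0.17. SMC4, a condensin subunit, was at 78.6 CPM in sc and 121 in shDCBLD2, and 53.6 with the empty vector against 26.4 in the library labelled OE. C3orf80, KIAA1644 and THBS1 lay nearest to SNAI2, and THBS1, which encodes thrombospondin, was at 84.0, 170, 51.7 and 75.9 CPM. ZFX, AKAP11 and NRCAM lay nearest to ZEB1, the closest at a distance of 0.035. IFITM3, HSD17B14 and OPRL1 lay nearest to TWIST1, and IFITM3, an interferon-induced membrane protein, was at 8.95, 3.57, 17.5 and 17.2 CPM.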

How the data were processed

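RNA-seq libraries of 4 lines labelled A549, 1 per condition, were analysed. The authors deposited raw counts of reads per gene and FPKM values that follow from those counts, the exonic gene size and the library total within 0.0051 for all 57905 genes. Poly(A) RNA was used per the labels. The submitters' processing notes name the build mm9, although the identifiers are human. The aligner, counter, annotation and strand setting are not given in the sources used here. Deposited coordinates and GRCh38 were not mixed.

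Counts were scaled by TMM factors (edgeR 4.0.16, R 4.3.3), with DESeq2 1.42.0 size factors as an alternative. Python 3.11.15 with matplotlib 3.10.9, pandas 2.3.3, numpy 2.4.6 and scipy 1.17.1 served for the rest. A prior count of 2 entered each log2 ratio in proportion to library size, 95% intervals of the share of both counts (exact, Clopper-Pearson), a filter of mean CPM of at least 1, a call at 2-fold with an interval excluding no change, and a floor of 3 counts. Levels had exact Poisson intervals. On simulated data with 200 of 13966 genes changed 3-fold, 193 were recovered for the overexpression comparison, and 20 of 13766 unchanged genes were called. Simulated counts varied by counting error alone, so these figures do not cover variation between lines or cultures. Between the 2 control lines 574 of 13966 genes (4.11%) were called.

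The members and the gene lists (231 entries, 5 found under an older symbol and 1 absent) were chosen with earlier results of these data known, and the lists were written from general knowledge. Named were all members, overlapping entries, the 2 highest and 2 lowest genes of each list in each comparison, genes called in both comparisons, and the 3 nearest genes of each variable driver; not all are printed. Genes named beyond this rule, such as CDH1 among the epithelial genes, CDKN2A, MBNL3 and single markers, were chosen after their values were seen. Protein sequences were not used here. The alternatives tried were other ways of scaling, prior counts of 0.5 and 5, counts drawn down to the smallest library, a 1.5-fold threshold, the other control, no filter, and a mean CPM of at least 5; leaving out genes that reach 1 CPM in a single library was added after seeing the data.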

Additional observations from a re-analysis of the deposited data

How the results depend on the processing

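The 5 driver log2 ratios kept their direction in 90 of 90 values under other scaling, prior counts and depth, and kept their call in 84. With the other control 6 of 10 kept direction and 8 of 10 their call. The alternatives for the target lists and the filter alternatives for the members were chosen after seeing the data. With upper quartile factors 1 driver was higher and 0 lower in the library labelled OE, and 485 of all genes were lower. With a prior count of 0.5, 1 driver was higher there. Between the controls 0 drivers were higher with library totals, a prior count of 5 or counts drawn down. At 1.5-fold, the library labelled OE had 1 driver higher and 2 lower, 1789 genes higher and 2484 lower, and 15 epithelial genes higher and 2 lower. In shDCBLD2 2 drivers were higher, 689 genes higher and 1618 lower, and 10 mesenchymal genes higher and 3 lower. Between the controls 987 genes were higher and 932 lower, 3 drivers lower, 2 epithelial genes higher and 3 lower, and 3 mesenchymal genes higher. With the other control, the library labelled OE had 2 drivers, 1254 genes and 2 epithelial genes lower, and shDCBLD2 had 2 drivers and 311 genes higher and 2 mesenchymal genes lower. Without a filter 1873 genes were higher in the library labelled OE, 417 higher and 1272 lower in shDCBLD2, and 594 higher and 524 lower between the controls, with 1 epithelial gene higher. At a mean CPM of at least 5, which leaves SNAI1 and ZEB1 among the members, 339 genes were higher and 493 lower in the library labelled OE, with 4 epithelial and 4 mesenchymal genes higher. In shDCBLD2 60 genes were higher and 337 lower, with 0 drivers higher or lower and 0 mesenchymal genes lower. Between the controls 96 were higher and 84 lower, with 0 drivers either way and 1 mesenchymal gene lower. These filters test fewer or more genes, and otherwise the cause was not tested. The other 182 counts stayed within 1.5 times. No paired analysis was possible because the labels give no replicate numbers and each condition has 1 library. Upper quartile factors moved the median of all genes in the library labelled OE from -0.04 to 0.08 against the empty vector. Depth limits the gatekeepers, whose counts of 0 to 8 can show only very large differences.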

Other observations

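The partners through which the Snail and ZEB repressors act were well expressed. All 15 listed co-repressors passed the filter. In shDCBLD2 0 were called in either direction, where 1.16% of all genes were higher and 5.62% lower. The median log2 ratio in shDCBLD2 was 0.16. LIMD1, a LIM domain partner of Snail proteins, had the lowest ratio there (-0.55) and AJUBA, its relative, the highest (0.40). In the library labelled OE 1 was called higher and 0 lower, where 6.42% of all genes were higher and 5.35% lower. That gene was SMARCA4, the BRG1 ATPase of chromatin remodelling, which is known to be mutated in A549 and works with ZEB1. SMARCA4 had 271 counts in sc and 339 in shDCBLD2, and 307 with the empty vector against 1798 in the library labelled OE, 6.48-fold over the empty vector.

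Genes that set the stability of the SNAIL, ZEB and TWIST proteins, kinases, ubiquitin ligases and deubiquitinases, were 19 in all and every one passed the filter. In the library labelled OE 0 were called in either direction, where 6.42% of all genes were higher and 5.35% lower. In shDCBLD2 0 were called as well, where 1.16% of all genes were higher and 5.62% lower. The medians were -0.22 and 0.09. GSK3B, the kinase that marks Snail for degradation, had 922, 1081, 654 and 448 counts in sc, shDCBLD2, the empty vector and the library labelled OE, with log2 ratios of 0.09 in shDCBLD2 and -0.39 in the library labelled OE. Counts of RNA do not measure the proteins. The antisense RNAs ZEB2-AS1 and OVOL1-AS1 had 0 counts in every library. MBNL3, a muscleblind splicing factor, had 21 counts in the library labelled OE and 0 in the other 3.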
